A study of Homo sapiens with 9 samples.

Results

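TP63 and TP73 are the genes of the transcription factors p63 and p73, relatives of the tumour suppressor p53. Both were taken by symbol with every transcript listed under them, which gave 2 of 62666 genes and 28 of 252876 transcripts, 14 of each gene. Their RNA was measured by sequencing of polyadenylated RNA in 3 related human breast epithelial lines. MCF10A is a non-tumorigenic mammary line, MCF10AT1 is its derivative carrying an activated HRAS gene, and MCF10Ca1a is a further derivative that forms tumours. Each line was sequenced as 3 numbered libraries, 9 in all. Horse serum was 5% in the medium of MCF10A and MCF10Ca1a and 2.5% in that of MCF10AT1, so serum and line cannot be told apart in comparisons with MCF10AT1. All the lines also received insulin, glutamine, epidermal growth factor, hydrocortisone and cholera toxin. Each stage is 1 line, and nothing in the labels says that its libraries came from separate cultures, so p-values measure the spread between these libraries.

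Both genes have an upstream and an internal promoter. Transcripts from the upstream promoter encode long proteins with an N-terminal transactivation domain (TAp63, TAp73). Those from the internal promoter encode short proteins without it (ΔNp63, ΔNp73), which can oppose the long forms and, for p63, also drive genes of their own. Splicing of the last exons gives the alpha, beta, gamma and delta ends. ΔNp63 alpha is the main p63 protein of basal epithelial cells, including those of the breast, where it maintains basal keratins and adhesion to the basement membrane. TAp73 takes part in responses to DNA damage and in the multiciliated cell programme.

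The first coding exon tells the long from the short form, and a 12-base segment tells the main ΔNp63 alpha transcript from its closest variant. The sequences that separate them are therefore shown first. Positions are those of GENCODE 29 on GRCh38. TP63 (ENSG00000073282.14) lies on the plus strand at chr3:189631416-189897279 and TP73 (ENSG00000078900.15) on the plus strand at chr1:3652520-3736201. TP63 has 6 long-form models, which start from 189631416 to 189631516, and 8 short-form models, which start from 189789660 to 189789801 inside the long form's gene body. TP73 has 5 long-form models, 4 short-form models that start from 3690672 to 3690707, and 5 with other starts. The coding bases of the first coding exon of both TP63 forms and of the TP73 long form follow, 5′ to 3′, with the start codon in capitals. They lie at chr3:189631516-189631577 and chr3:189789801-189789842 for TP63 and at chr1:3682366-3682430 for TP73.
TP63 long form: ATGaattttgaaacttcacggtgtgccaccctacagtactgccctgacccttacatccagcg
TP63 short form: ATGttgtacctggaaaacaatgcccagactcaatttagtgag
TP73 long form: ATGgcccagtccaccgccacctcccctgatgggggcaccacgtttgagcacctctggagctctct

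The segment lies in a coding exon of TP63, at chr3:189868705-189868716, the last 12 bases of an exon of 137 bases. Its length is a multiple of 3 bases, so its loss keeps the reading frame. The 2 lines below join that exon's end to the next exon's start, with the segment in capitals. TP63-203 (ENST00000354600) holds the segment and TP63-212 (ENST00000456148) lacks it.
TP63-203: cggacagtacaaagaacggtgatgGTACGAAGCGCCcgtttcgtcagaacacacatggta
TP63-212: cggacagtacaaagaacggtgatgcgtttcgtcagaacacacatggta

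Libraries of MCF10Ca1a held 32.9 to 35.2 M estimated counts (M, mega-counts), and those of the other lines 62.9 to 69.5 M, so low transcripts were measured less precisely in MCF10Ca1a. No 2 libraries held identical values. All 6 defining breast epithelial markers (EPCAM, CDH1, KRT5, KRT14, KRT8 and KRT18) were above 1 TPM, the length-adjusted unit of the deposited tables, in each line. Of markers of other cell types, CD3E and CLDN5 were at 0 in all 9 libraries. PECAM1, KDR, COL1A1, DCN, CD68 and CD14 differed between lines, PECAM1 being higher and KDR lower in MCF10Ca1a than in the other lines, and their summed lists reached at most 31.5 TPM for fibroblast, 33.4 TPM for immune and 20.8 TPM for endothelial markers. The part of such cells in the results was not tested.

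TP63 RNA was lower in MCF10AT1 than in either of the other lines. In length-adjusted levels, TP63 stood at 29.8, 25.5 and 22.7 TPM in the MCF10A libraries, at 16.9, 16.4 and 15.3 TPM in MCF10AT1 and at 30.6, 31.9 and 30.9 TPM in MCF10Ca1a. The MCF10AT1 libraries lay below all others, and those of MCF10Ca1a lay above all of MCF10A in TPM. The means were 26.0 ± 3.57, 16.2 ± 0.816 and 31.1 ± 0.653 TPM (SD, n = 3). These levels were above those of 72.9%, 66.2% and 75.0% of the 17910 genes tested. An exact two-sided permutation test on TPM gave p = 0.1 for each pair of lines, the smallest that 3 against 3 libraries allow (0.21 adjusted over 21 tests).

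The estimated counts of TP63 were 4937, 4536 and 4618 for MCF10A, 3374, 3251 and 2936 for MCF10AT1, and 2744, 2706 and 2763 for MCF10Ca1a. Scaled for depth, they gave 71.1 ± 5.48, 49.0 ± 1.65 and 78.4 ± 1.91 CPM, counts scaled to a common library total (SD, n = 3). On this scale the ranges of MCF10A and MCF10Ca1a overlapped, since the highest MCF10A library had 77.0 CPM and the lowest MCF10Ca1a library 76.7 CPM.

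In edgeR's quasi-likelihood test over all genes, TP63 fell by 0.54 on the log2 scale in MCF10AT1 against MCF10A (SE 0.0586, 1.45-fold, adjusted p = 2.8e-06). It was 0.68 higher in MCF10Ca1a than in MCF10AT1 (SE 0.0594, 1.60-fold, adjusted p = 1.2e-07). Calls were common in these lines: at an adjusted p under 0.05, 61.6% of genes were called in MCF10AT1 against MCF10A. The share was 80.9% for MCF10Ca1a against MCF10A, and 78.4% against MCF10AT1. The 3 comparisons share their libraries and are not independent. In these bulk samples, fewer expressing cells and less RNA per cell cannot be told apart.

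MCF10A and MCF10Ca1a, the neighbours at the top of the order, were not separated firmly. TP63 was 0.14 higher in MCF10Ca1a on the log2 scale (SE 0.0587, adjusted p = 0.040 by edgeR). The call was lost when any of 8 of the 9 libraries was left out (0.08 to 0.19 over all 9 omissions, adjusted p 0.0015 to 0.214). It was also lost without the filter on low counts, at 0.07 with adjusted p = 0.41. Other scaling gave larger values, at 0.18 with DESeq2 size factors and 0.26 by limma on log2(TPM + 1).

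**Figure D1:**
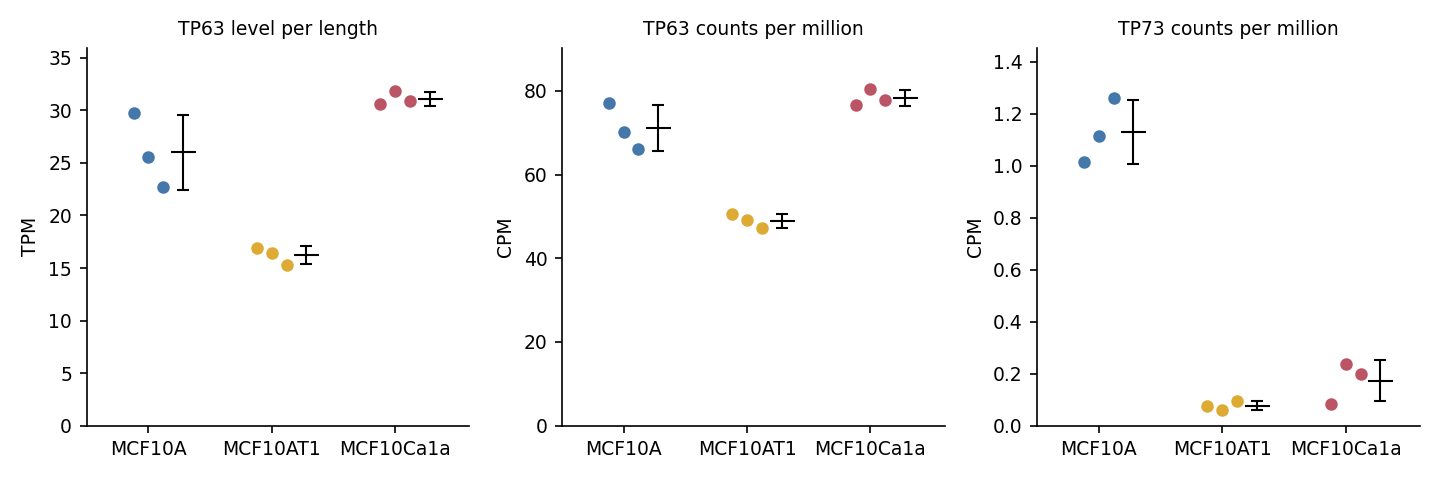
TP63 in TPM (left) and CPM (middle) and TP73 in CPM (right) for each library of the 3 lines, with black bars for the mean and SD of 3 libraries. TP63 was lowest in the 3 MCF10AT1 libraries, at 15.3 to 16.9 TPM, whereas TP73 was above 1 CPM in the 3 MCF10A libraries alone.

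Nearly all TP63 RNA was assigned to the short form. Models from the internal promoter held 99.1% to 99.9% of TP63 TPM in every library. In TPM the short form averaged 25.9 ± 3.55, 16.1 ± 0.819 and 31.0 ± 0.761 (SD, n = 3) in MCF10A, MCF10AT1 and MCF10Ca1a. Its changes tracked the gene's, at log2 values of −0.54 for MCF10AT1 against MCF10A and 0.68 for MCF10Ca1a against MCF10AT1 (edgeR adjusted p = 2.8e-06 and 1.2e-07).

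The long form rested on few estimated counts: 17.9, 11.5 and 15.8 for MCF10A, 17.1, 11.8 and 15.7 for MCF10AT1, and 12.1, 1.86 and 14.2 for MCF10Ca1a. Its share of TP63 TPM was 0.485% ± 0.129 in MCF10A, 0.745% ± 0.151 in MCF10AT1 and 0.531% ± 0.370 (SD, n = 3) in MCF10Ca1a, and the ranges of the lines overlapped. No change of the long form was called: its log2 differences were −0.00 (SE 0.420), 0.20 (SE 0.459) and 0.20 (SE 0.460), with edgeR adjusted p from 0.699 to 0.997. In 8 libraries all of these counts sat on TP63-202, the long delta model, and in MCF10A replicate 2 on TP63-207, the long gamma model. The long alpha models (TP63-201 and TP63-210) and the long beta model (TP63-204) were at 0 in every library. Counts shared between models are estimates, so the split between ends at this depth is uncertain.

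**Figure D2:**
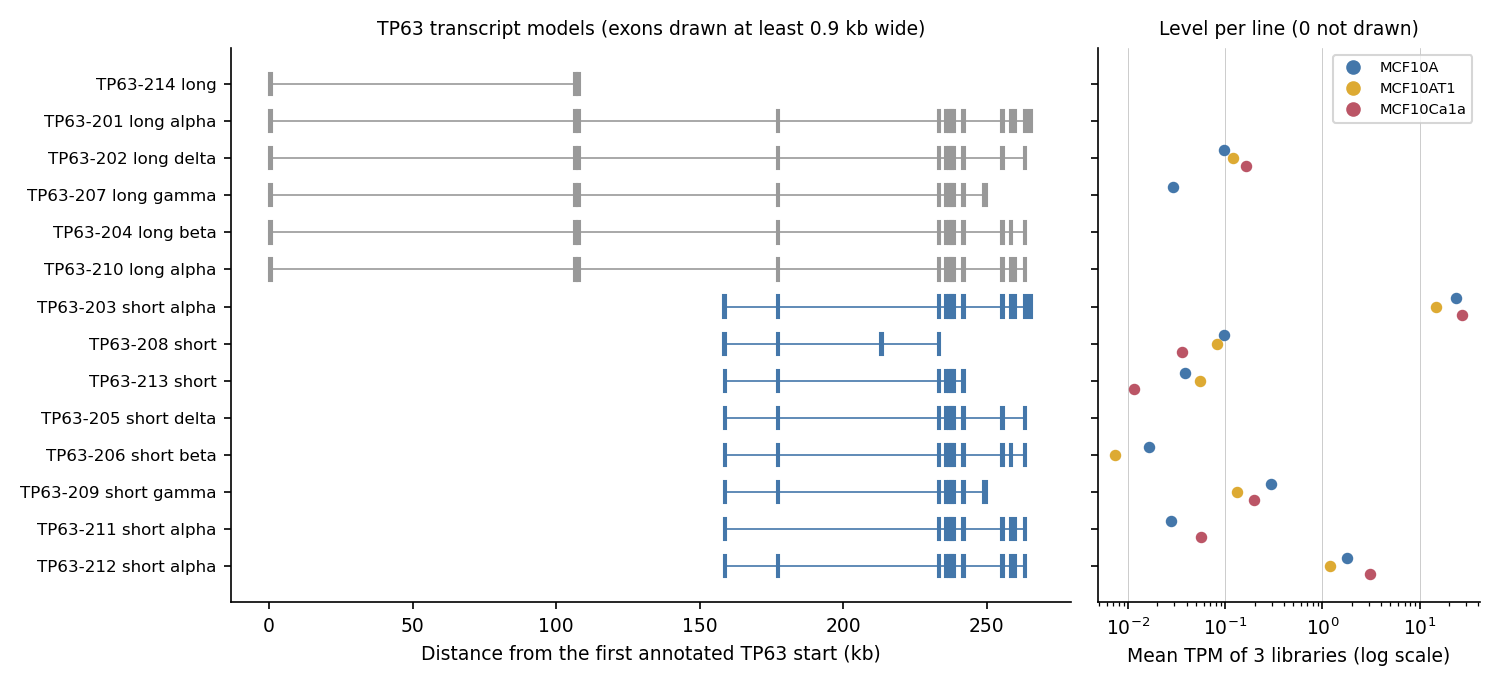
The 14 TP63 transcript models by distance from the first annotated start in kb, with exons as boxes (left), beside the mean TPM of 3 libraries per line on a log scale (right; models at 0 have no point). The long models are grey and the short models blue, and TP63-203 and TP63-212 are the 2 models above 1 TPM.

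TP63-203, the ΔNp63 alpha transcript with the segment, was the main product in every library. It held 91.2%, 89.6% and 91.4% of TP63 TPM for MCF10A, 90.2%, 89.97% and 90.3% for MCF10AT1, and 87.5%, 89.9% and 88.5% for MCF10Ca1a. Of the TP63 models, 4 passed the filter on low counts in a transcript-level edgeR fit, in which 13.1% of transcripts were called in MCF10AT1 against MCF10A, 35.9% in MCF10Ca1a against MCF10A and 31.8% against MCF10AT1. TP63-203 fell by 0.55 in MCF10AT1 against MCF10A (SE 0.0761, adjusted p = 0.0026) and was 0.67 higher in MCF10Ca1a than in MCF10AT1 (SE 0.0763, adjusted p = 3.2e-04), both log2. Between MCF10Ca1a and MCF10A it differed by 0.12 (SE 0.0759, adjusted p = 0.27).

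TP63-212, the alpha transcript without the segment, was the second product. Its share of TP63 TPM was 6.80%, 7.91% and 5.99% for MCF10A, 7.85%, 6.93% and 7.40% for MCF10AT1, and 10.5%, 8.81% and 10.3% for MCF10Ca1a. All 3 MCF10Ca1a libraries lay above the 6 others, whose ranges overlapped. Its counts were 186, 202 and 154 for MCF10A, 148, 126 and 120 for MCF10AT1, and 163, 132 and 161 for MCF10Ca1a. As a level, TP63-212 rose by 1.11 on the log2 scale in MCF10Ca1a against MCF10AT1 (SE 0.192, 2.16-fold, adjusted p = 0.0030, transcript-level edgeR). Against MCF10A it rose by 0.66 (SE 0.190, adjusted p = 0.028), a call whose edgeR adjusted p ran from 0.042 to 0.094 as libraries were left out and was 0.126 without the filter on low counts.

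The mix of the alpha transcripts was tested apart from the gene's level, with limma on log2 ratios of 1 transcript to all others of the gene. For TP63-212 the log2 ratio was 0.54 higher in MCF10Ca1a than in MCF10A (SE 0.191, adjusted p = 0.080) and 0.39 higher than in MCF10AT1 (SE 0.191, adjusted p = 0.20). Neither passed the threshold, although the shares did not overlap. With 1 TPM added in place of 0.1 TPM, the first of these was called (0.33, limma adjusted p = 0.033). In this test 3.54% of transcripts were called in MCF10AT1 against MCF10A, 23.2% in MCF10Ca1a against MCF10A and 18.9% against MCF10AT1. The TP63-212 model holds no UTR, whereas TP63-203 has one, and how that affects the assignment of reads between them was not tested.

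**Figure D3:**
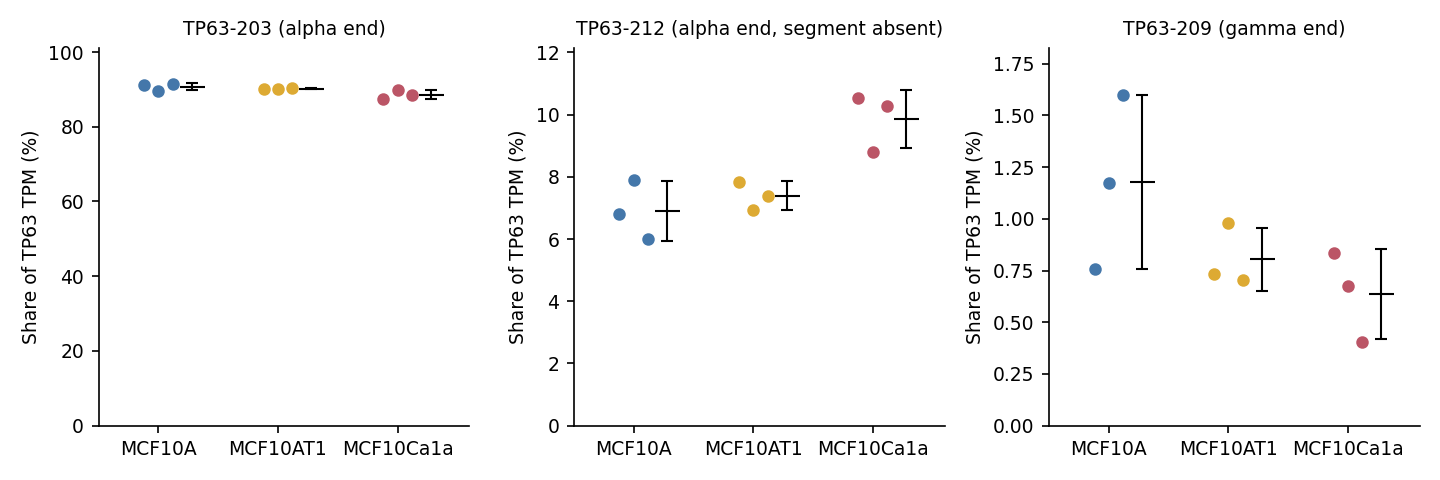
Share of TP63 TPM in percent held by TP63-203 (left), TP63-212 (middle) and TP63-209 (right) in each library, with black bars for the mean and SD of 3 libraries. The shares of TP63-212 run from 8.81% to 10.5% in MCF10Ca1a and from 5.99% to 7.91% in the other lines, while those of TP63-209 overlap.

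TP63-209, the ΔNp63 gamma transcript, held 1.18% ± 0.421, 0.804% ± 0.152 and 0.637% ± 0.218 of TP63 TPM (SD, n = 3) in MCF10A, MCF10AT1 and MCF10Ca1a. Its counts ran from 7.26 to 47.4, the ranges of its shares overlapped, and none of its changes was called with 0.1 TPM added. With 1 TPM added, its log2 ratio was called lower in MCF10Ca1a than in MCF10A (−0.38, limma adjusted p = 0.0496) and than in MCF10AT1 (−0.82, limma adjusted p = 0.0014). That 1 TPM exceeds its mean levels of 0.296, 0.131 and 0.198 TPM in MCF10A, MCF10AT1 and MCF10Ca1a. The ratio then moves with the rest of the gene, so no change of TP63-209 is read from these calls. Of the 9 TP63 models in the share test, 2 were called, both in MCF10Ca1a against MCF10AT1, where 18.9% of all transcripts were called, a like share. TP63-213, a retained-intron model, gave 7.28, 5.41 and 3.50 counts for MCF10AT1 and 1.54, 0 and 0 for MCF10Ca1a (log2 ratio −1.42, SE 0.289, adjusted p = 0.012). TP63-206, the short beta model, had 1.88 counts in 1 MCF10AT1 library and 0 in all of MCF10Ca1a (log2 ratio −1.03, SE 0.278, adjusted p = 0.037). Both calls were lost with 0.01 TPM added (limma adjusted p = 0.069 for TP63-213 and 0.330 for TP63-206). The call of TP63-206 was also lost on omission of any library but MCF10A replicate 1 or 3 (limma adjusted p up to 0.119). At such counts the added 0.1 TPM is larger than either model's mean level, and the log2 ratio then moves with the rest of the gene. The short models TP63-208 and TP63-211 had at most 6.09 and 5.28 counts in any library. TP63-205, the short delta model, and the long retained-intron model were at 0 in all 9 libraries.

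TP73 RNA was scarce and nearly confined to MCF10A. Its libraries gave 65, 72 and 88 counts for MCF10A, 5, 4 and 6 for MCF10AT1, and 3, 8 and 7 for MCF10Ca1a. The MCF10A libraries lay far above all others, and those of MCF10AT1 and MCF10Ca1a overlapped. TP73 averaged 1.13 ± 0.124, 0.0773 ± 0.0183 and 0.173 ± 0.0798 CPM (SD, n = 3). It fell by 3.84 on the log2 scale in MCF10AT1 against MCF10A (SE 0.304, 14.3-fold, adjusted p = 1.1e-07, edgeR) and by 2.70 in MCF10Ca1a (SE 0.302, 6.50-fold, adjusted p = 1.5e-06). The difference of 1.14 between MCF10Ca1a and MCF10AT1 (adjusted p = 0.030) was lost without the filter (adjusted p = 0.070), in the DESeq2 Wald test (adjusted p = 0.054) and on omission of any of several single libraries (0.85 to 1.47, adjusted p up to 0.184).

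Per length, TP63 exceeded TP73 in every line. The ratio of their mean TPM was 85.4 in MCF10A, where TP73 had 0.305 TPM, and 725 in MCF10AT1 and 360 in MCF10Ca1a, where it rests on a few TP73 counts.

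In MCF10A, most TP73 reads were assigned to the long form. Its 5 models, counted by their start at the upstream promoter, held 36.3, 69.6 and 69.2 of the estimated counts there, and 62.9% ± 21.8 of TP73 TPM (SD, n = 3). The bulk was TP73-208 (ENST00000378295), with 36.3, 62.6 and 69.2 counts in MCF10A and 0 in each of the 6 other libraries. That is at least 18.2-fold lower in MCF10AT1 and at least 9.80-fold lower in MCF10Ca1a, taking 3 counts per library as the limit of a count of 0. The limit covers counting error only.

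The models of the upstream promoter together fell by 4.04 on the log2 scale in MCF10AT1 (SE 0.521, adjusted p = 1.5e-05, edgeR) and by 3.32 in MCF10Ca1a (SE 0.552, adjusted p = 7.5e-05) against MCF10A. TP73-208 was called in both comparisons in the transcript-level edgeR fit (adjusted p = 0.0095 and 0.0046). With single libraries left out, the call in MCF10AT1 was lost without MCF10A replicate 2 (edgeR adjusted p = 0.062) or replicate 3 (0.053). Both calls depend on the design of the fit, and neither is firm. The residual upstream-promoter counts outside MCF10A, at most 6 per library, were all on TP73-211.

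TP73-209 and TP73-213 begin at the first coding exon of the long form and hold no UTR, so they encode a long N-terminus without showing which promoter was used. They were kept apart from the long form above. TP73-213 had 6.68 and 1.89 counts in MCF10Ca1a replicates 2 and 3, where it held 93.6% and 51.7% of TP73 TPM, and TP73-209 had 7.86 counts in MCF10A replicate 1. With both counted as long, an alternative chosen after the data were seen, the long form had 44.1, 69.6 and 69.2 counts in the libraries of MCF10A. The sum was 0, 4 and 6 for MCF10AT1 and 3, 8 and 7 for MCF10Ca1a. All TP73 counts of MCF10Ca1a were then on models counted as long. Against MCF10A it fell by 4.10 on the log2 scale in MCF10AT1 (edgeR adjusted p = 6.5e-06) and fell by 2.40 in MCF10Ca1a (edgeR adjusted p = 2.2e-04). On that count the long form was 1.70 higher in MCF10Ca1a than in MCF10AT1 (SE 0.687, edgeR adjusted p = 0.036), against an uncalled 0.71 (adjusted p = 0.454) for the upstream-promoter models alone.

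The short form had 20.9, 0 and 17.8 counts in MCF10A and at most 1.40 in any other library, too few to test. Within MCF10A it thus appeared in 2 of 3 libraries, on TP73-206 in replicate 1 and mainly on TP73-205 in replicate 3. TP73-201, TP73-202 and TP73-204 were at 0 throughout, and each of the models not yet named with counts had fewer than 7 in any library.

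The promoter of the TP73 long form is shown because that form held most TP73 reads in MCF10A and was lower in both derived lines. A further reason is that E2F1, a known activator of TAp73, is among the regulators listed below. These are the 250 bases before the RefSeq start (GRCh38.p14, plus strand), chr1:3652266-3652515, with the match to an E2F motif in capitals.
TP73 long-form promoter: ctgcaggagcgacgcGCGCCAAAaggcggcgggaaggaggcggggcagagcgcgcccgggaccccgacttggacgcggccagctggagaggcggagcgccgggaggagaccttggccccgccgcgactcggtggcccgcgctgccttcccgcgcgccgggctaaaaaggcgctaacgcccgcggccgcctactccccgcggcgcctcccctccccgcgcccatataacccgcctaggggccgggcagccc

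Of 3 motifs searched on both strands, the E2F motif TTTNGCGC was found in 1.51% of 35116 promoters of this length. Those promoters were not matched for base content, and this one is 77.2% G or C. It holds no match to the others, TATAAA and CCAAT. The internal TP73 promoter and the TP63 long-form promoter hold no E2F match in their 250 bases. The TP63 long-form promoter holds 2 matches to CCAAT, found in 32.0% of promoters, and the internal TP73 promoter none. E2F1 stood at 14.7 ± 1.06, 20.6 ± 0.262 and 13.2 ± 0.192 CPM (SD, n = 3) in MCF10A, MCF10AT1 and MCF10Ca1a. Against MCF10A, E2F1 was 0.49 higher on the log2 scale in MCF10AT1 and 0.16 lower in MCF10Ca1a (edgeR adjusted p = 6.8e-06 and 0.033), and TP73 was lower in both. The call in MCF10Ca1a was lost with DESeq2 (−0.12, adjusted p = 0.177) and on omission of MCF10A replicate 1 or of any MCF10Ca1a library (edgeR adjusted p up to 0.091).

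TP73-AS1, a noncoding gene on the minus strand whose end overlaps the last 691 bases of TP73, was lower in both derived lines, as TP73 was, by less on the log2 scale. It had 18.0 ± 0.865, 10.8 ± 0.300 and 15.5 ± 0.326 CPM (SD, n = 3) in MCF10A, MCF10AT1 and MCF10Ca1a. TP73-AS1 fell by 0.73 in MCF10AT1 and by 0.22 in MCF10Ca1a on the log2 scale (edgeR adjusted p = 9.8e-08 and 0.0035), and was 0.52 higher in MCF10Ca1a than in MCF10AT1 (adjusted p = 2.5e-06). On log2(TPM + 1) the difference between MCF10Ca1a and MCF10A was −0.03 and not called by limma (adjusted p = 0.696). The kit keeps strand, but whether the quantification used it is not given in the sources used here, so reads from the overlap cannot be assigned with certainty. TP73-AS2 was at 0 in all libraries, and TP73-AS3 had at most 5 counts.

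Of the 4 coding genes listed around TP63, LPP alone moved in its directions in every comparison. LPP, a focal adhesion protein gene upstream of TP63, was 0.23 lower on the log2 scale in MCF10AT1 than in MCF10A (edgeR adjusted p = 0.016), a call lost without MCF10AT1 replicate 1 or 2 (0.084 and 0.081). It was 1.24 higher in MCF10Ca1a than in MCF10A and 1.47 higher than in MCF10AT1. TPRG1, the next upstream gene, was 2.06 lower in MCF10Ca1a than in MCF10A. P3H2, a collagen prolyl hydroxylase gene 59449 bases downstream, was 1.70 higher in MCF10AT1, the line with the least TP63, and 1.12 higher in MCF10Ca1a. CLDN1, a tight junction gene further downstream, was 0.73 and 2.35 higher. All differences given here for these 4 genes, except those of LPP and TPRG1 in MCF10AT1 against MCF10A, passed with an edgeR adjusted p of at most 6.2e-07. MIR944, inside a TP63 intron, was at 0 in this polyadenylated RNA.

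Genes of the p63 basal programme moved in both directions. Of 34 listed targets and basal genes, 32 were tested. In MCF10AT1 against MCF10A, 14 were higher and 16 lower (30 called, 93.8%, beside 61.6% of all genes, 29.8% higher and 31.8% lower), with a median log2 change of −0.09 beside −0.00 over all genes. In MCF10Ca1a against MCF10A, 10 were higher and 17 lower (84.4% beside 80.9% of all genes, 39.0% higher and 41.9% lower; median −0.28 beside −0.05). In MCF10Ca1a against MCF10AT1, where TP63 was higher, 11 were higher and 14 lower (78.1% beside 78.4% of all genes, 38.0% higher and 40.3% lower; median −0.06 beside −0.04). Roles below were assigned after the values were seen.

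Of the 3 basal keratin genes, all called, 2 were higher and 1 lower in MCF10AT1 than in MCF10A, and 1 was higher and 2 lower in MCF10Ca1a (beside 61.6% and 80.9% of all genes called, so nothing is read from 3 of 3). KRT14 fell stepwise, from 316 ± 28.9 CPM in MCF10A to 65.7 ± 2.55 in MCF10AT1 and 6.26 ± 0.467 in MCF10Ca1a (SD, n = 3). Its log2 change in MCF10Ca1a against MCF10A was −5.65 (SE 0.0889, edgeR adjusted p = 4.2e-15). KRT5, its pairing partner, had 2548 ± 279, 3268 ± 198 and 686 ± 20.2 CPM, 0.36 higher in MCF10AT1 and 1.89 lower in MCF10Ca1a, the former not called by limma on log2(TPM + 1) (0.21, adjusted p = 0.127). KRT17, named after its values were seen, had 895 ± 61.8, 1095 ± 50.0 and 2268 ± 73.8 CPM (SD, n = 3), 0.29 and 1.34 higher on the log2 scale (edgeR adjusted p = 0.0016 and 2.2e-10). None of the 3 followed the order of TP63 over the lines.

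Hemidesmosomes and laminin-332 anchor basal cells to the basement membrane. Of their 8 listed genes, 3 were higher and 4 lower in MCF10AT1 than in MCF10A (beside 29.8% of all genes higher and 31.8% lower). In MCF10Ca1a against MCF10A, 2 were higher and 4 lower (beside 39.0% of all genes higher and 41.9% lower). ITGB4, the integrin of hemidesmosomes, rose from 694 ± 109 CPM in MCF10A to 974 ± 23.9 in MCF10AT1 and 1851 ± 74.4 in MCF10Ca1a (log2 1.42 in MCF10Ca1a against MCF10A, adjusted p = 3.8e-09), although its first step was not called by limma on log2(TPM + 1) without a filter (0.35, adjusted p = 0.076). Of 6 desmosome and adhesion genes tested, 5 were lower and 1 higher in each derived line than in MCF10A (beside 31.8% of all genes lower in MCF10AT1 and 41.9% in MCF10Ca1a). These role groups were not tested. PERP, a desmosomal p63 target, was 0.44 lower in MCF10AT1 and 0.92 lower in MCF10Ca1a. DSG3, a desmosomal cadherin, was 0.54 and 0.31 higher. DSG3 was also 0.23 lower in MCF10Ca1a than in MCF10AT1 in counts, whereas limma on log2(TPM + 1) gave 0.03.

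The transcription factor genes ZNF750 and BNC1 were lower in MCF10AT1 than in MCF10A and higher in MCF10Ca1a than in MCF10AT1, the directions of TP63. BNC1, a zinc finger gene of basal keratinocytes named after its values were seen, had 184 ± 9.12, 164 ± 5.41 and 219 ± 1.39 CPM (SD, n = 3). Its log2 changes were −0.17 in MCF10AT1 and 0.25 in MCF10Ca1a against MCF10A (edgeR adjusted p = 0.015 and 6.0e-04). ZNF750, an epidermal differentiation factor, gave 11, 12 and 17 counts for MCF10A, 2, 0 and 2 for MCF10AT1 and 50, 53 and 70 for MCF10Ca1a. It was at least 4.33-fold lower in MCF10AT1 than in MCF10A and at least 35.7-fold higher in MCF10Ca1a than in MCF10AT1, with 3 counts per library as the floor.

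The Notch ligand genes JAG1 and JAG2 and the Notch target HES1 were higher at each step, HES1 being named after its values were seen. JAG1 had 63.7 ± 7.40, 120 ± 3.00 and 233 ± 3.81 CPM (SD, n = 3), a log2 change of 1.87 in MCF10Ca1a against MCF10A (adjusted p = 1.6e-11). JAG2 was 0.77 higher in that comparison, and its step from MCF10AT1 to MCF10Ca1a was not called with length-scaled counts (log2 0.03, edgeR adjusted p = 0.645). Its step from MCF10A to MCF10AT1 was not called by limma on log2(TPM + 1) without a filter (0.26, adjusted p = 0.063). FGFR2, a receptor gene activated by p63, had 6.77 ± 0.273, 2.18 ± 0.151 and 0.981 ± 0.0565 CPM. The step from MCF10AT1 to MCF10Ca1a was −1.15 on the log2 scale in counts, but on log2(TPM + 1) it was −0.09 and not called by limma (adjusted p = 0.233; 0.624 and 0.531 TPM). NRG1, a ligand of ERBB receptors, was 1.69 higher in MCF10AT1 and 0.90 lower in MCF10Ca1a than in MCF10A in counts, but on log2(TPM + 1) the latter difference was 0.00. S100A2, a calcium-binding protein of basal cells, was 0.43 higher in MCF10AT1 and 1.51 lower in MCF10Ca1a. FRAS1, a basement membrane protein gene, was 0.75 and 2.04 higher, the former not called by limma on log2(TPM + 1) (0.15, adjusted p = 0.112). SFN, the gene of 14-3-3 sigma, was called in none of the 3 comparisons in counts (log2 −0.07 to 0.04, edgeR adjusted p 0.32 to 0.65). On log2(TPM + 1) limma called SFN higher in MCF10Ca1a than in MCF10AT1 (0.22, adjusted p = 0.029), against −0.07 in counts.

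**Figure D4:**
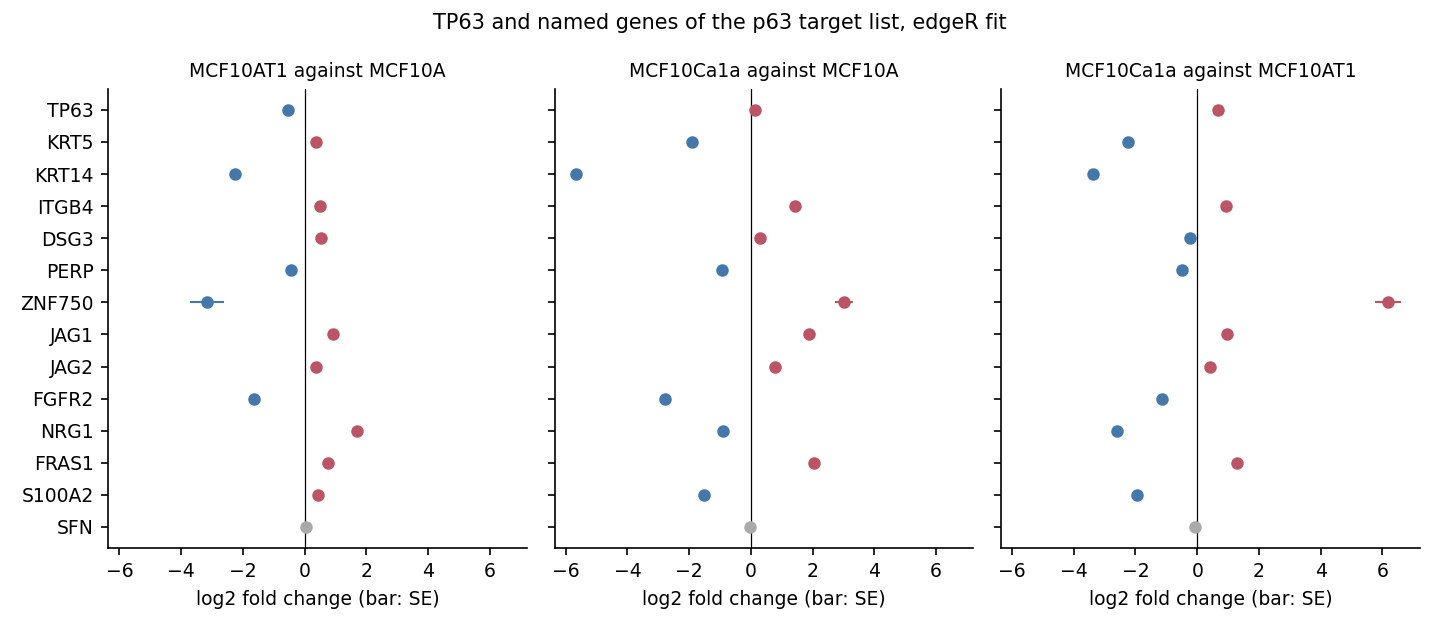
Log2 fold changes of TP63 and 13 named genes of the p63 target list in the 3 comparisons of the edgeR fit, with bars for the SE. Red and blue points are higher and lower calls at an adjusted p under 0.05, and grey points were not called. KRT14 is lower in every panel, and the ZNF750 points rest on at most 2 counts per library in MCF10AT1, so their fitted sizes are not bounds.

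The list of regulators and partners of p63 and p73 proteins had 16 genes, all tested. In MCF10AT1 against MCF10A, 4 were higher and 7 lower (68.8% called beside 61.6% of all genes; median log2 −0.13). In MCF10Ca1a against MCF10A, 7 were higher and 7 lower (87.5% beside 80.9%; median 0.07). In MCF10Ca1a against MCF10AT1, 6 were higher and 6 lower (75.0% beside 78.4%; median 0.06). These shares were near those of all genes. ITCH, a ubiquitin ligase that degrades p63 and p73, was 0.98 higher in MCF10Ca1a than in MCF10A (adjusted p = 6.2e-10, edgeR; chosen after its value was seen). NEDD4, a related ligase, had 124 ± 2.46, 91.1 ± 5.19 and 38.2 ± 0.443 CPM (SD, n = 3), a log2 change of −1.70 in MCF10Ca1a against MCF10A. YAP1, a coactivator that binds p73, was 0.29 lower in MCF10AT1 and 1.34 lower in MCF10Ca1a. HIPK2, a kinase that acts on p53 family proteins, was 0.28 and 1.13 higher, the former not called by limma on log2(TPM + 1) (0.13, adjusted p = 0.303). STXBP4, whose protein stabilises ΔNp63, had 11.9 ± 0.532, 8.61 ± 0.421 and 14.7 ± 0.605 CPM, with log2 changes of −0.46 in MCF10AT1 and 0.31 in MCF10Ca1a, the latter not called with length-scaled counts (0.05, edgeR adjusted p = 0.759). PPP1R13L, the gene of the inhibitor iASPP, was 0.56 and 0.59 higher, and PPP1R13B, the gene of the activator ASPP1, was 0.61 and 0.52 lower, the latter not called by limma on log2(TPM + 1) (−0.24, adjusted p = 0.104). KMT2D, a histone methyltransferase that works with p63, was 1.10 higher in MCF10Ca1a than in MCF10A.

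Target genes shared by the p53 family moved in both directions. Of 10 tested, 8 were higher and 2 lower in MCF10AT1 than in MCF10A (beside 29.8% of all genes higher and 31.8% lower; median log2 0.54 beside −0.00). In MCF10Ca1a, 3 were higher and 6 lower (90.0% called, near the 80.9% of all genes; median −0.26 beside −0.05). In MCF10Ca1a against MCF10AT1, 2 were higher and 7 lower (beside 38.0% of all genes higher and 40.3% lower; median −0.95 beside −0.04). CDKN1A, the cell cycle inhibitor p21, had 156 ± 9.68, 360 ± 10.6 and 141 ± 2.52 CPM (SD, n = 3), a log2 change of 1.21 in MCF10AT1, where TP63 and TP73 were both low. GADD45A, a stress response gene, was 0.74 and 2.57 higher in the derived lines, and BBC3, the proapoptotic gene PUMA, was 0.86 and 1.90 higher. SESN1, a sestrin, was 0.38 higher in MCF10AT1 and 2.91 lower in MCF10Ca1a, the former not called by limma on log2(TPM + 0.1) (0.26, adjusted p = 0.072). FAS, a death receptor gene, was 0.36 and 1.59 lower, and RRM2B, a ribonucleotide reductase subunit, was 0.21 and 1.76 lower.

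Of 7 genes of the multiciliated programme, 5 were tested, of which 1 was higher and 2 lower in MCF10AT1 than in MCF10A (60.0% called, near the 61.6% of all genes), and 1 higher and 4 lower in MCF10Ca1a (5 of 5 called, beside 80.9%). In MCF10Ca1a against MCF10AT1, 1 was higher and 3 lower (80.0% called, near the 78.4% of all genes). FOXJ1, its defining factor, was at 0 in all 9 libraries. MCIDAS, a coactivator of that programme, was lower with TP73 in both derived lines, at 3.91 ± 0.247, 2.55 ± 0.0689 and 0.561 ± 0.0948 CPM (SD, n = 3). RFX3, a ciliary factor, was instead 0.34 and 1.83 higher, the former not called by limma on log2(TPM + 1) (0.17, adjusted p = 0.086). MYB, a transcription factor of early ciliogenesis, was 1.92 lower in MCF10Ca1a than in MCF10A. RFX2, related to RFX3, was 0.74 and 0.61 lower.

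Luminal markers, set beside the basal programme, were mostly higher in the derived lines. Of 9 tested, 8 were higher and 0 lower in MCF10AT1 than in MCF10A (beside 29.8% of all genes higher and 31.8% lower; median log2 1.42 beside −0.00). In MCF10Ca1a, 7 were higher and 1 lower (beside 39.0% of all genes higher and 41.9% lower; median 1.85 beside −0.05). The 88.9% called there was near the 80.9% of all genes. In MCF10Ca1a against MCF10AT1, 4 were higher and 3 lower (77.8% called, near the 78.4% of all genes). KRT8 had 184 ± 15.6, 849 ± 58.4 and 661 ± 22.8 CPM (SD, n = 3). KRT19 had 0.0556 ± 0.0326, 0.326 ± 0.101 and 7.28 ± 0.370 CPM. ELF3, an epithelial transcription factor, had 1.06 ± 0.0669, 9.66 ± 0.794 and 35.0 ± 0.926 CPM. Luminal markers were thus mostly higher in MCF10AT1, where TP63 was lower, and in MCF10Ca1a, where TP63 was not low. A link between TP63 and these markers was not tested.

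Among 11956 genes with a mean of at least 100 counts over the 9 libraries, the patterns most like that of TP63 were those of SLC38A7, MED24, STAT5B, SLC16A1 and ACOX3. Likeness was the root mean square difference of centred log2 CPM over the 9 libraries, and it was 0.0340 for SLC38A7 and 0.0429 to 0.0480 for the other 4. SLC38A7, an amino acid transporter gene, had log2 changes of −0.54 in MCF10AT1 against MCF10A and 0.68 in MCF10Ca1a against MCF10AT1, the same values as TP63. STAT5B, a transcription factor gene of cytokine signalling, had −0.54 and 0.64. These genes were picked for the pattern, so their values are a description.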

How the data were processed

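The authors deposited estimated counts and TPM per gene and per transcript, with 2 further gene tables of counts, named as length-scaled and as scaled. The submitters' processing notes name Salmon and hg38. The annotation, strand setting and versions are not given in the sources used here. Polyadenylated RNA was sequenced with a stranded kit, per the labels. The TPM values were used as deposited by the authors.

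Estimated counts were rounded. Genes were kept by edgeR's filterByExpr by line (minimum count 10, total 15), which left 17910 of 62666 genes and 79409 of 252876 transcripts. Lines were compared by edgeR's quasi-likelihood test (edgeR 4.0.16, R 4.3.3) with TMM scaling, all 9 libraries in 1 fit, and Benjamini-Hochberg adjustment over all features at 0.05. Promoter forms were sums of transcript counts put in place of their gene. Shares were tested with limma 3.58.1 on log2((transcript TPM + 0.1) / (rest of the gene + 0.1)), over 121087 transcripts of genes at 1 TPM or more in at least 3 libraries. All 28 transcripts matched GENCODE 29 by unversioned identifier. Promoter sequences came from RefSeq. Counts of 3 per library were the floor; reads without molecular identifiers are not independent, so floors cover counting error only. Uncertainty in the split of reads among transcripts was not modelled.

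The members, gene lists and tests were chosen with earlier results of these data known. Named genes were the members, their neighbours, 12 p63 targets (of which 1 is not reported here), the 2 largest rises and falls per list among genes called against MCF10A in either derived line, and the 5 patterns nearest to TP63. On simulated data with 200 genes changed by 1.5 on the log2 scale in MCF10AT1 against MCF10A, edgeR recovered 200 among 17407 genes with 9 false calls. The transcript fit recovered 195 of 200 among 75222 transcripts, and the share test 128 of 185 among 71874. Changed features were drawn only above a minimum mean level, and the dispersion was fixed. These rates need not hold for scarce features such as TP73 or for the smaller changes of TP63. Alternatives were DESeq2 1.42.0, DESeq2 size factors, no filter, the 2 scaled count tables, limma on TPM, the replicate number as a block, the lines compared alone, other share settings, each library left out in turn and, added after the data were seen, TP73-209 and TP73-213 counted as long.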

Additional observations from a re-analysis of the deposited data

How the results depend on the processing

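The fall of TP63 in MCF10AT1 against MCF10A and its higher level in MCF10Ca1a than in MCF10AT1 kept their direction and call under every alternative run, as did both falls of TP73 and of its long form against MCF10A. With TP73-209 and TP73-213 counted as long, the TP73 long form gained a call in MCF10Ca1a against MCF10AT1 (1.70). No count of called genes or list members moved by over 1.5 times. On limma with log2(TPM + 1), TP73 fell by 0.35 and 0.27 only, since the added 1 TPM exceeds its level. On that scale the median of all genes in MCF10Ca1a against MCF10AT1 shifted to 0.13, and TP63 stood 0.77 above it.

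TP63 in MCF10Ca1a against MCF10A lost its call without the filter (0.065, and 0.065 for the short form), with length-scaled counts (0.10) and with scaled counts (0.11). It was larger with DESeq2 size factors (0.18) and with limma on log2(TPM + 1) (0.26). With each library left out it ran from 0.078 to 0.19, and the short form from 0.077 to 0.19. TP73 in MCF10Ca1a against MCF10AT1 lost its call in the DESeq2 Wald test (1.21), without the filter (1.05), and with limma on log2(TPM + 1) with and without a filter (0.086) and on log2(TPM + 0.1) (0.54). With each library left out it ran from 0.85 to 1.47, and the call was lost without MCF10AT1 replicate 1 or 2 or MCF10Ca1a replicate 2 or 3. The causes were not tested.

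The uncalled TP63 long form turned without the filter (0.0087 in MCF10AT1 against MCF10A). With each library left out it ran from −0.14 to 0.15 in MCF10AT1 against MCF10A, from −0.21 to 0.65 in MCF10Ca1a against MCF10A, and from −0.21 to 0.65 in MCF10Ca1a against MCF10AT1. With a pseudocount of 1 TPM, share ratios turned for TP63-209 (0.44, MCF10AT1 against MCF10A), TP63-202 (−0.17, MCF10Ca1a against MCF10A) and TP63-203 (0.069, MCF10Ca1a against MCF10AT1). Left-out libraries turned the uncalled share of TP63-209 (−0.35 to 0.11) and of TP63-202 (−0.27 to 0.60), and the level of TP63-202 against MCF10A (−0.16 to 1.01, MCF10AT1) and against MCF10AT1 (−0.23 to 0.66, MCF10Ca1a).

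With 1 TPM added, calls were also gained in MCF10AT1 against MCF10A by the shares of TP63-202 (0.68), TP63-206 (0.63) and TP63-213 (0.67), and in MCF10Ca1a against MCF10AT1 by that of TP63-202 (−0.85). The added 1 TPM exceeds the mean level of each of these models in every line, so these ratios move with the rest of the gene. The level of TP63-203 in MCF10Ca1a against MCF10A was called without MCF10A replicate 1 (0.19). Limma on log2(TPM + 1) did not call KRT5, FRAS1, HIPK2, RFX3 or ZNF750 in MCF10AT1 against MCF10A, CDKN1A, PPP1R13B or STXBP4 in MCF10Ca1a against MCF10A, or FGFR2, KRT8 or P3H2 in MCF10Ca1a against MCF10AT1.

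Other genes turned as follows, by comparison. SFN in MCF10AT1 against MCF10A was −0.0011 with length-scaled and −0.0016 with scaled counts and −0.13 with limma on TPM at either pseudocount. SFN in MCF10Ca1a against MCF10A was 0.0071 with DESeq2 or its size factors and 0.088 with limma on TPM. SFN in MCF10Ca1a against MCF10AT1 was 0.22 with limma on TPM, called in the filtered limma fits. With limma on TPM, NRG1 in MCF10Ca1a against MCF10A was 0.0027 (0.0064 with the smaller pseudocount), and DSG3 in MCF10Ca1a against MCF10AT1 was 0.034 (0.035). PPP1R13L in MCF10Ca1a against MCF10AT1 was −0.057 without the filter. Limma on log2(TPM + 1) called PPP1R13L higher there (0.30, adjusted p = 0.0071), and PPP1R13B too (0.33, adjusted p = 0.033). CDH1 in MCF10AT1 against MCF10A was 0.0058 without the filter, 0.021 with only those lines fitted, and −0.11 to 0.14 with each library left out, the highest being called (without MCF10A replicate 1, adjusted p = 0.028).

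Replicate numbers did not pair the libraries: correlations of same-numbered deviations ran from −0.06 to 0.05 over 9 pairs. In both of the other lines at once, 0 libraries correlated best with their own number. With the replicate block, 10846, 14397 and 13917 genes were called against 11025, 14491 and 14034, and TP63 gave −0.54, 0.14 and 0.68 and TP73 −3.84, −2.71 and 1.12. Under the block, CDH1 in MCF10AT1 against MCF10A was 0.0015 and TP63-202 in MCF10Ca1a against MCF10AT1 was −0.33, neither called. The block also ended the calls of TP73-208 against MCF10A (adjusted p = 0.155 in MCF10AT1 and 0.086 in MCF10Ca1a), of the TP63-206 share (0.065) and of TP63-212 in MCF10Ca1a against MCF10A (0.058). Depth limits the long form of TP63 and all transcripts of TP73, most of all in MCF10Ca1a.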
